A study of Homo sapiens with 24 samples.

Results

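Follistatin, activin, bone morphogenetic protein (BMP) and transforming growth factor beta (TGF-beta) genes are described here in 2 human neuroblastoma cell lines, SK-N-AS and IMR-32. The set holds 10 genes, FST, GREM1, INHBA, BMP2, BMP4, BMP7, TGFB1, TGFB2, TGFBR2 and SMAD7. They were found by gene symbol among 17199 named genes, and they are read by 14 of the 27942 probes that have 1 gene symbol. The genes were picked with their differences between HOXC9 and GFP arrays known, so those differences are given as a description, with no p-value. The 4 groups were SK-N-AS cells labelled with a HOXC9 transgene, SK-N-AS cells with the control transgene GFP (green fluorescent protein), IMR-32 cells with HOXC9 and IMR-32 cells with GFP. Each group has 1 one-colour array of total RNA at each of 6 labelled hours, from 0 and 6 h through 12 and 24 h to 48 and 96 h, which makes 6 arrays a group and 24 in all. HOXC9 is a homeobox transcription factor. The MYCN oncogene is amplified in IMR-32 and not in SK-N-AS. The vector, the promoter that drives the transgene and whether a line is 1 clone are not given in the sources used here, and the labels do not say whether the hours came from separate cultures. The hours stand in for replicates, so each error measures the spread between hours, which may be technical. The SE of a HOXC9 minus GFP difference comes from 1 fit of both lines, which share 1 estimate of the spread. It is therefore not the spread of that line's own hours alone.

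TGF-beta superfamily ligands are secreted dimers that bring together type I and type II receptor kinases, which phosphorylate SMAD proteins that then enter the nucleus and act on target genes. TGF-betas and activins signal mainly through SMAD2 and SMAD3, and BMPs through SMAD1, SMAD5 and SMAD9. Soluble antagonists bind the ligands outside the cell, and the inhibitory SMADs act as feedback inside it. BMPs are known for driving the sympathetic fate of neural crest cells, from which neuroblastoma derives.

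RefSeq promoter windows of build GRCh38.p14, from 250 bases before to 50 bases after a transcript start, were found for 8 of the 10 genes, 14 windows in all. The windows of FST, GREM1, INHBA and BMP4 are printed because, among the genes with a window, these had the widest differences between HOXC9 and GFP arrays. GREM1 has 2 windows and BMP4 has 3, of which the first on the gene's strand is printed. Each is written 5′ to 3′ on the gene's own strand: FST at chr5:53480379-53480678, plus strand; GREM1 at chr15:32717754-32718053, plus strand; INHBA at chr7:41703041-41703340, minus strand; BMP4 at chr14:53955001-53955300, minus strand. Capitals mark the SMAD core GTCT or its reverse complement AGAC, the AP-1 motif TGANTCA and the TATA box TATAAA.
FST: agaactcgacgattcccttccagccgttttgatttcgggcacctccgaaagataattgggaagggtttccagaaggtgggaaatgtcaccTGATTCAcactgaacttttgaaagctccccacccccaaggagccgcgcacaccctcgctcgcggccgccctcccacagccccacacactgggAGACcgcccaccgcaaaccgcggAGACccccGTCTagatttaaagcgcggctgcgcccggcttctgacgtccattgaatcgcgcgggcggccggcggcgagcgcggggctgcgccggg
GREM1: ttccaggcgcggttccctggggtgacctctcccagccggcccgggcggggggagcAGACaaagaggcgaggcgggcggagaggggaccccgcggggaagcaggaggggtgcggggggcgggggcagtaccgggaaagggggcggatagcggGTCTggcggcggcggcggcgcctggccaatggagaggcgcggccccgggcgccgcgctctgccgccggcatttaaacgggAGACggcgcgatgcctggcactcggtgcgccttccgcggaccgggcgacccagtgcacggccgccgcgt
INHBA: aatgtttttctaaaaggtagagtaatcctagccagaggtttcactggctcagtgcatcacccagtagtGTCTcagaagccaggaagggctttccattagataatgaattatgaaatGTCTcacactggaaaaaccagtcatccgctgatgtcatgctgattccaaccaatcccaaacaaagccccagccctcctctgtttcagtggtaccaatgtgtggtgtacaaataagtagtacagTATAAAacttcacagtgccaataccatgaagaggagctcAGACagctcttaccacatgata
BMP4: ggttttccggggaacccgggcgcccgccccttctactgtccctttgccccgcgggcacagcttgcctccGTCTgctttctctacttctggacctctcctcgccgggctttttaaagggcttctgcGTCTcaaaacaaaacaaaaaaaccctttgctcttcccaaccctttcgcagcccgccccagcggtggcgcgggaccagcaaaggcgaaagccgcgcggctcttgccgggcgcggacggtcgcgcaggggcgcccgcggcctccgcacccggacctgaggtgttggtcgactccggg

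Both strands of all 35116 RefSeq promoter windows were searched. GTCT was in 13 of the 14 windows of the set and in 84.0% of all windows, so a match is the usual case. The FST window holds GTCT 3 times, at positions -68, -45 and -37 from the start, and TGANTCA once, at -160. TGANTCA was in 2 of the 14 windows and in 7.71% of all. TATAAA was in 3 of the 14 windows, of INHBA, TGFB2 and SMAD7, and in 11.5% of all. The INHBA window had 1 CG dinucleotide and a GC content of 43.3%, against 42 CG dinucleotides and 77.0% in the GREM1 window, 32 and 63.7% in the FST window and a median GC content of 58.7% over all windows. CAGACA, which contains AGAC and so always counts as GTCT too, was in 4 of the 14 windows and in 16.9% of all. GGCGCC, the GC box of BMP-driven SMADs, was in 2 windows, of BMP4 and GREM1, and in 19.2% of all. The palindrome GTCTAGAC, which holds GTCT on both strands, and the posterior HOX motif TTTATG were in 0 of the 14 windows, and in 0.202% and 10.6% of all. No match says only that these letters are not in the windows, and a match is a description of the letters.

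All levels are log2 fluorescence intensities, with a median of 6.83 and a lowest value of 0.41 over the table. Values near the lowest cannot be told from background. In the main fits each difference is taken within 1 probe. Levels of different probes are set together only in the markers below and in calling a probe bright or dim. The HOXC9 probe checks the labels: it lay between 11.63 and 11.90 in SK-N-AS arrays labelled HOXC9 and between 12.09 and 12.47 in the SK-N-AS GFP arrays, against the label at every hour, and between 9.86 and 10.34 in IMR-32 HOXC9 arrays and 5.63 and 6.25 in IMR-32 GFP arrays. Among SK-N-AS arrays with the HOXC9 label, the hours 6, 12 and 24 h formed 1 set and 0, 48 and 96 h another (Pearson r of 0.982 to 0.986 across probes, against at least 0.990 within either set of hours). In SK-N-AS GFP arrays r fell to 0.983 within 0, 48 and 96 h, so r alone does not mark the split. Between the sets, 662 bright probes shifted at least 2-fold under the HOXC9 label in SK-N-AS. In SK-N-AS GFP, IMR-32 HOXC9 and IMR-32 GFP arrays 21, 15 and 102 did. The differences of the 10 genes and the counts in SK-N-AS are therefore also given without 6, 12 and 24 h. Noradrenergic neuroblastoma markers were above the median of the table for 5 of 6 measured genes in both SK-N-AS groups and for 6 of 6 in both IMR-32 groups. TH was the exception. They summed to 58.0 to 62.5 in SK-N-AS arrays labelled HOXC9 and 62.0 to 63.6 in SK-N-AS GFP arrays. DBH averaged 7.91 against 11.46 in these groups, ISL1 8.40 against 9.32 and HAND2 14.20 against 14.69. In the other direction were PHOX2A (14.35 against 13.24), TH (4.80 against 3.54) and GATA3 (11.13 against 10.77). Of 6 fibroblast markers, 6 were above the median in both SK-N-AS groups, with summed levels of 72.9 to 76.2 in arrays labelled HOXC9 and 65.0 to 70.9 in GFP arrays, and 1 in both IMR-32 groups. Mesenchymal neuroblastoma markers summed to 51.2 to 53.2 in SK-N-AS arrays labelled HOXC9 and 41.0 to 43.8 in SK-N-AS GFP arrays, and to 36.2 to 37.4 in IMR-32 HOXC9 arrays and 33.4 to 37.9 in IMR-32 GFP arrays. In SK-N-AS arrays labelled HOXC9 and GFP, CD44 averaged 5.07 and 1.17, PRRX1 4.27 and 1.66, FOSL1 8.55 and 7.03, and NOTCH2 7.25 and 5.80. VIM averaged 17.08 and 17.25 there, and YAP1 9.76 and 9.66. PTPRC, the pan-leukocyte antigen, averaged 12.52 and 12.58 in SK-N-AS arrays labelled HOXC9 and GFP, while CD3E, CD14 and LYZ averaged below the median in all groups. Of 4 epithelial and 2 measured Schwann cell markers, none was above the median in any group except EPCAM in IMR-32 GFP arrays (7.10 ± 4.36, SD, n = 6). Fewer cells of a type and less RNA per cell cannot be told apart in such bulk samples, and the part of these markers in the results below was not tested.

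FST encodes follistatin, a secreted protein that binds activins, and more weakly some BMPs, and keeps them from their receptors. It was bright in SK-N-AS arrays labelled HOXC9 and dim in the other 3 groups. FST ranged from 10.05 to 10.65, with a median of 10.40, in SK-N-AS arrays labelled HOXC9, and from 2.05 to 3.70, with a median of 3.24, in SK-N-AS GFP arrays. In IMR-32 it ranged from 0.58 to 1.48, with a median of 0.65, in HOXC9 arrays, and from 2.77 to 5.22, with a median of 4.25, in GFP arrays. The groups did not overlap in either line, and the direction was opposite. The HOXC9 minus GFP difference over 6 to 96 h was 7.03 ± 0.31 (SE, n = 5 hours) in SK-N-AS and -3.28 ± 0.31 in IMR-32. Its SD over those hours was 0.25 in SK-N-AS and 1.04 in IMR-32. At 0 h it was 8.49 in SK-N-AS and -2.98 in IMR-32, so the difference was already there in the earliest arrays. At 48 and 96 h alone the FST difference in SK-N-AS was 6.89. IMR-32 HOXC9 arrays at 12 h and later lay between 0.58 and 0.66, near the lowest value of the table, so the size of the IMR-32 difference depends on that floor: with 50 units added to each intensity it was -0.41, and the SK-N-AS difference was 4.50. In the order of group means, SK-N-AS GFP (3.11 ± 0.59, SD, n = 6) and IMR-32 GFP (4.14 ± 0.82) overlapped, and the other neighbours did not.

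**Figure D1:**
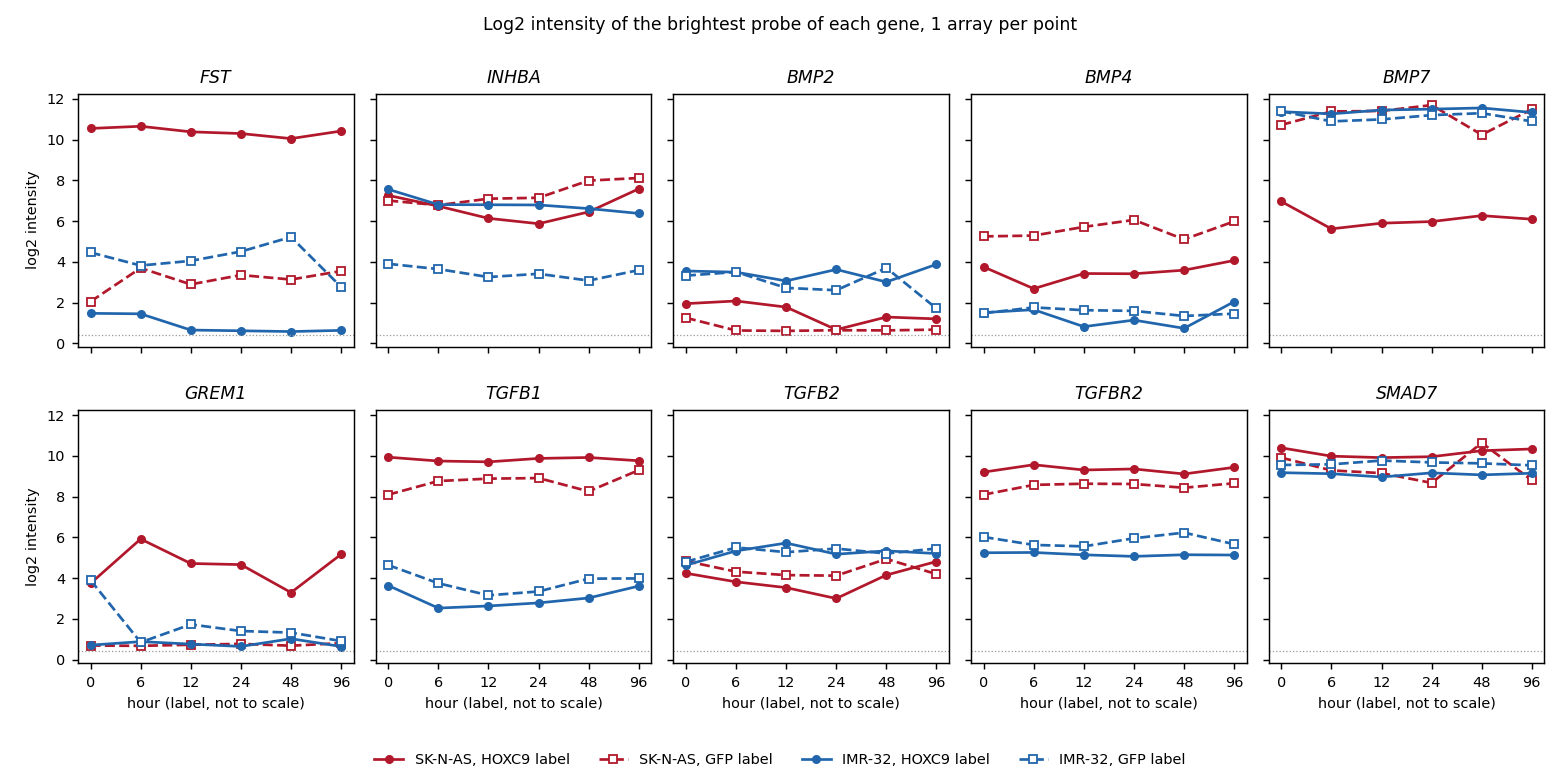
Log2 intensity (vertical axis) of the brightest probe of each of the 10 genes at the 6 labelled hours (horizontal axis, not to scale), 1 array per point, with filled circles for HOXC9 and open squares for GFP labels, red for SK-N-AS and blue for IMR-32. The dotted line is the lowest value of the table, 0.41; FST in SK-N-AS arrays labelled HOXC9 lies between 10.05 and 10.65 at every hour, far above the other 3 groups, and BMP7 in the same arrays lies between 5.62 and 6.96, far below them.

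GREM1 encodes gremlin, a secreted antagonist that binds BMP2, BMP4 and BMP7. It was detected clearly above the lowest value in SK-N-AS arrays labelled HOXC9, from 3.30 to 5.92 with a median of 4.69, against 0.68 to 0.81 with a median of 0.72 in SK-N-AS GFP arrays. The 2 SK-N-AS groups did not overlap. The difference over 6 to 96 h was 4.02 ± 0.30 (SE, n = 5 hours), 3.05 at 0 h and 3.48 at 48 and 96 h alone. GREM1 was on average also 1.03 brighter at 6, 12 and 24 h than at 0, 48 and 96 h within SK-N-AS arrays labelled HOXC9, the widest such shift upward in the set. These sets of hours overlapped: GREM1 at 96 h, 5.17, lay above 12 h (4.72) and 24 h (4.67). In IMR-32 it ranged from 0.65 to 1.03, with a median of 0.74, in HOXC9 arrays and from 0.85 to 3.90, with a median of 1.37, in GFP arrays. The value of 3.90 is the 0 h array alone; the other 5 GFP arrays lay at or below 1.73, and the difference over 6 to 96 h was -0.45 ± 0.30, against -3.19 at 0 h. With 50 units added, the SK-N-AS difference was 0.63, since the GFP arrays lie at the floor. In the order of GREM1 means, SK-N-AS arrays labelled HOXC9 overlapped IMR-32 GFP arrays only through that 0 h array, and the other 3 groups overlapped their neighbours.

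INHBA encodes the beta A subunit that forms activin A, the ligand that follistatin binds most tightly. In IMR-32 it was high in the HOXC9 arrays, from 6.38 to 7.56 with a median of 6.80, against 3.08 to 3.90 with a median of 3.51 in GFP arrays. Those groups did not overlap, and the difference over 6 to 96 h was 3.28 ± 0.20 (SE, n = 5 hours), with 3.65 at 0 h. In SK-N-AS INHBA ranged from 5.87 to 7.58, with a median of 6.59, in arrays labelled HOXC9 and from 6.78 to 8.11, with a median of 7.12, in GFP arrays. These groups overlapped, with a difference over 6 to 96 h of -0.87 ± 0.20, of 0.26 at 0 h and of -1.03 at 48 and 96 h alone. The INHBA signal in IMR-32 HOXC9 arrays overlapped both SK-N-AS groups, and IMR-32 GFP (3.48 ± 0.29, SD, n = 6) stood below the other 3 groups. With 50 units added the IMR-32 difference was 1.33.

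BMP7 and BMP4 are ligands of the BMP branch, and both were dimmer in SK-N-AS arrays labelled HOXC9. BMP7 ranged from 5.62 to 6.96, with a median of 6.03, in SK-N-AS arrays labelled HOXC9 and from 10.23 to 11.69, with a median of 11.39, in SK-N-AS GFP arrays. In IMR-32 it ranged from 11.26 to 11.55 in HOXC9 arrays and from 10.89 to 11.39 in GFP arrays. SK-N-AS arrays labelled HOXC9 thus stood below the other 3 groups, which overlapped one another. The BMP7 difference over 6 to 96 h was -5.27 ± 0.22 (SE, n = 5 hours) in SK-N-AS, -3.75 at 0 h and -4.68 at 48 and 96 h alone, and 0.36 ± 0.22 in IMR-32. Its SD over the hours from 6 to 96 h was 0.74 in SK-N-AS and 0.09 in IMR-32. All 3 BMP7 probes had this direction in SK-N-AS: the other 2 differed by -5.29 and -3.95 there, and by 0.12 and 0.65 in IMR-32. These bright levels leave the difference less open to the floor, and with 50 units added it was -4.45.

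BMP4 ranged from 2.68 to 4.07, with a median of 3.51, in SK-N-AS arrays labelled HOXC9 and from 5.10 to 6.06, with a median of 5.50, in SK-N-AS GFP arrays, with no overlap. In IMR-32 it was near the floor in both groups, from 0.74 to 2.05 in HOXC9 arrays and from 1.35 to 1.77 in GFP arrays. The difference over 6 to 96 h was -2.19 ± 0.21 (SE, n = 5 hours) in SK-N-AS, -1.50 at 0 h and -1.71 at 48 and 96 h alone, and -0.28 ± 0.21 in IMR-32. The order of BMP4 means was SK-N-AS GFP, SK-N-AS labelled HOXC9, then both IMR-32 groups, which overlapped. BMP2, a close relative of BMP4, was dim throughout: its highest value in SK-N-AS was 2.08 in arrays labelled HOXC9 and 1.26 in GFP arrays, and its highest in IMR-32 was 3.88 in HOXC9 and 3.70 in GFP arrays. The BMP2 difference was 0.76 ± 0.35 in SK-N-AS and 0.57 ± 0.35 in IMR-32, all neighbours in the order of its means overlapped, and the SK-N-AS value was 0.59 at 48 and 96 h alone and 0.03 with 50 units added.

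TGFB1, the most widely expressed TGF-beta ligand, and TGFBR2, the type II receptor that binds TGF-betas, shifted in the same direction in each line. TGFB1 ranged from 9.71 to 9.93, with a median of 9.82, in SK-N-AS arrays labelled HOXC9 and from 8.10 to 9.30, with a median of 8.82, in SK-N-AS GFP arrays. In IMR-32 it ranged from 2.53 to 3.64, with a median of 2.91, in HOXC9 arrays and from 3.16 to 4.64, with a median of 3.87, in GFP arrays. The SK-N-AS groups did not overlap and the IMR-32 groups did, although TGFB1 was lower with HOXC9 at each of the 6 hours in IMR-32. Both SK-N-AS groups lay above both IMR-32 groups. The TGFB1 difference over 6 to 96 h was 0.98 ± 0.17 (SE, n = 5 hours) in SK-N-AS, against 1.84 at 0 h and 1.06 at 48 and 96 h alone, and -0.72 ± 0.17 in IMR-32. The IMR-32 levels are dim, and with 50 units added that difference was -0.12.

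TGFBR2 ranged from 9.11 to 9.56, with a median of 9.33, in SK-N-AS arrays labelled HOXC9 and from 8.10 to 8.66, with a median of 8.60, in SK-N-AS GFP arrays. In IMR-32 it ranged from 5.07 to 5.26, with a median of 5.15, in HOXC9 arrays and from 5.56 to 6.23, with a median of 5.81, in GFP arrays. The 4 groups did not overlap at any step of the order of means, SK-N-AS labelled HOXC9, SK-N-AS GFP, IMR-32 GFP and IMR-32 HOXC9. The TGFBR2 difference over 6 to 96 h was 0.77 ± 0.11 (SE, n = 5 hours) in SK-N-AS and -0.66 ± 0.11 in IMR-32, with 1.10 and -0.77 at 0 h, and was 0.73 in SK-N-AS at 48 and 96 h alone. A dimmer second TGFBR2 probe, whose highest array was at 5.37, differed by 0.21 in SK-N-AS and by 0.59 in IMR-32, so the probes part in direction in IMR-32.

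TGFB2, another TGF-beta ligand, differed by -0.48 ± 0.21 (SE, n = 5 hours) in SK-N-AS and -0.02 ± 0.21 in IMR-32. At 48 and 96 h alone the SK-N-AS value was -0.086, from -0.79 at 48 h and 0.62 at 96 h. At 0, 6, 12 and 24 h the TGFB2 difference in SK-N-AS was -0.60, -0.50, -0.61 and -1.12, so only the 96 h pair was positive. Its median was 3.99, with a highest value of 4.82, in SK-N-AS arrays labelled HOXC9 and 4.26, with a highest value of 4.94, in SK-N-AS GFP arrays. In IMR-32 the median was 5.27, with a highest value of 5.72, in HOXC9 arrays and 5.36, with a highest value of 5.51, in GFP arrays. The groups overlapped in both lines, and so did all neighbours in the order of means. Its second probe lay between 0.42 and 2.76 on all arrays and differed by 0.06 in SK-N-AS and -0.06 in IMR-32. SMAD7, the inhibitory SMAD that blocks type I receptors and is itself induced by TGF-beta, was bright in all 4 groups. It ranged from 9.91 to 10.39, with a median of 10.12, in SK-N-AS arrays labelled HOXC9 and from 8.67 to 10.64, with a median of 9.22, in SK-N-AS GFP arrays. The SK-N-AS groups overlapped only through the 48 h GFP array, at 10.64, where the difference was -0.38. SMAD7 in IMR-32 ranged from 8.96 to 9.18 in HOXC9 arrays and from 9.53 to 9.77 in GFP arrays, with no overlap. SK-N-AS arrays labelled HOXC9 were highest, and the other 3 groups overlapped their neighbours in the order of means. The SMAD7 difference over 6 to 96 h was 0.78 ± 0.22 in SK-N-AS, 0.58 there at 48 and 96 h alone, and -0.55 ± 0.22 in IMR-32.

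Across the set, 6 of the 10 genes had HOXC9 and GFP groups that did not overlap over 6 hours in SK-N-AS: FST, GREM1, TGFB1 and TGFBR2 higher in arrays labelled HOXC9, and BMP4 and BMP7 lower. Over all 17199 genes the groups did not overlap for 20.1% in SK-N-AS (10.5% higher and 9.57% lower). In IMR-32 INHBA was higher, and FST, TGFBR2 and SMAD7 were lower, with no overlap, 4 of 10 genes beside 25.6% of all genes (12.2% higher and 13.4% lower). The genes were chosen on these differences, so nothing is read from these shares. The median difference of the 10 genes was 0.77 in SK-N-AS and -0.36 in IMR-32, beside -0.02 and -0.01 over all genes.

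**Figure D2:**
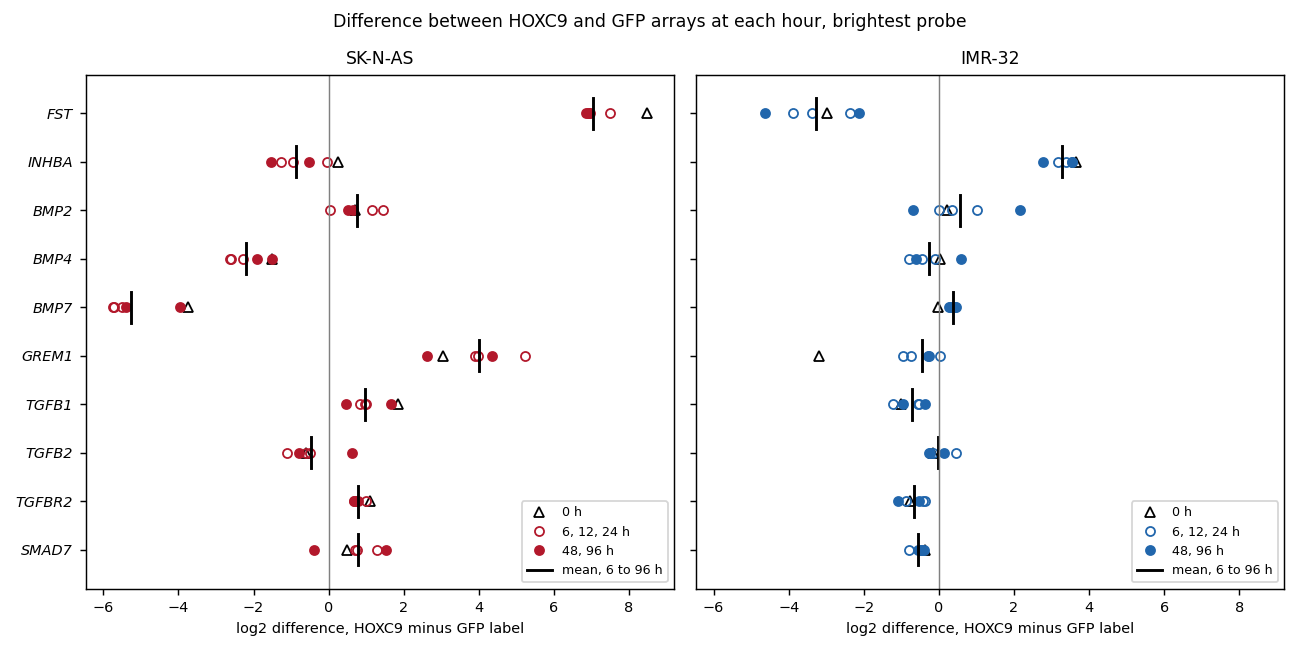
HOXC9 minus GFP difference in log2 intensity (horizontal axis) of the 10 genes (rows) at each hour in SK-N-AS (left) and IMR-32 (right): triangles for 0 h, open circles for 6, 12 and 24 h, filled circles for 48 and 96 h, and a bar for the mean over 6 to 96 h. FST lies at 7.03 in SK-N-AS and -3.28 in IMR-32, while BMP7 lies at -5.27 in SK-N-AS and 0.36 in IMR-32.

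The wider pathway was read from 8 lists of other ligands, antagonists, receptors, SMADs and targets, 127 genes of which 123 were measured. These lists, and the rule that picked the genes named from them, were chosen with earlier results of these data known. Their calls are therefore no independent support. In SK-N-AS, 27 of the 123 were called higher and 27 lower in arrays labelled HOXC9 (limma, Benjamini-Hochberg adjusted p under 0.05 over 17199 genes). That is 43.9%, close to the 42.2% of all genes called (20.8% higher and 21.4% lower). Without 6, 12 and 24 h of SK-N-AS, 17 were called higher and 17 lower there, 27.6%, beside 22% of all genes. In IMR-32, 15 were higher and 19 lower, 27.6%, beside 24% of all genes (12.6% higher and 11.4% lower). Both lines share 1 estimate of the spread, and without those SK-N-AS hours 19 were higher and 23 lower in IMR-32, 34.1%, beside 28.4% of all genes. No test set these shares against those of all genes.

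In SK-N-AS, TGF-beta and activin targets had 7 of 23 genes higher and 4 lower, receptors and coreceptors 2 of 18 higher and 7 lower, SMADs and their regulators 3 of 18 higher and 6 lower, and BMP targets 4 of 13 higher and 4 lower. Without 6, 12 and 24 h these counts were 3 higher and 3 lower, 2 higher and 5 lower, 2 higher and 2 lower, and 3 higher and 2 lower, in the same order of lists. ID4, which blocks helix-loop-helix transcription factors and is a BMP target, averaged 2.96 ± 0.59 (SD, n = 5) in arrays labelled HOXC9 and 9.43 ± 0.78 in GFP arrays, a difference of -6.47 ± 0.15 (SE; limma adjusted p = 2.18e-09). The related ID1, ID2 and ID3, named after their values were seen, differed by 0.25 ± 0.20, 0.67 ± 0.26 and 0.54 ± 0.22 and did not pass the test. RUNX2, an osteoblast transcription factor, was higher by 1.19 ± 0.13 (limma adjusted p = 8.10e-05), with 0.63 and 0.50 on its other probes, which did not pass. ANGPTL4, a lipoprotein lipase inhibitor induced by TGF-beta, was higher by 3.83 ± 0.47 (limma adjusted p = 0.000155), and the gelatinase MMP2 by 1.59 ± 0.24 (limma adjusted p = 0.000529), although the second MMP2 probe differed by 0.11.

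Among extracellular antagonists, 4 of 15 rose and 2 fell in SK-N-AS arrays labelled HOXC9, and without 6, 12 and 24 h 3 rose and 1 fell. WFIKKN2, which binds myostatin and GDF11, averaged 3.67 ± 0.22 (SD, n = 5) in arrays labelled HOXC9 and 9.69 ± 0.74 in GFP arrays, a difference of -6.02 ± 0.21 (SE; limma adjusted p = 2.29e-08), with -1.59 on its second probe. Its relative WFIKKN1 was higher by 1.15 ± 0.15 (limma adjusted p = 0.000241). Latent TGF-beta binding and activation genes had 4 of 11 higher and 0 lower, and 2 higher and 0 lower without those hours. Among those higher were ITGB8, the integrin beta subunit that releases latent TGF-beta, by 3.37 ± 0.13 (limma adjusted p = 4.62e-08), and the latent TGF-beta binding protein LTBP3 by 0.75 ± 0.15 (limma adjusted p = 0.00301), whose second probe gave 0.12 and did not pass. Of the other 3 ITGB8 probes, 2 gave 2.48 and 2.32 and 1 gave 0.01. Among ligands, LEFTY1, an inhibitor of nodal, was higher by 1.12 ± 0.12, and GDF1, GDF5 and GDF10 were lower, at -1.13 ± 0.12, -0.70 ± 0.11 and -2.63 ± 0.50; GDF10 did not pass without the arrays of 6, 12 and 24 h (limma adjusted p = 0.167). The coreceptor endoglin (ENG) differed by -1.45 ± 0.19 and the type I receptor BMPR1B by -0.74 ± 0.08. SMAD3 was higher by 1.39 ± 0.09 (limma adjusted p = 1.99e-06) and ZFYVE9, a SMAD anchor at endosomes, was lower, at -0.98 ± 0.07, with -0.94 and, not passing, -0.22 on its other probes.

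In IMR-32 the HOXC9 arrays had 4 of 15 antagonists higher and 1 lower, and 0 of 11 latent TGF-beta genes higher and 3 lower. In the fit without 6, 12 and 24 h of SK-N-AS, the latent TGF-beta genes in IMR-32 had 3 higher and 3 lower. NBL1, a BMP antagonist of the DAN family, averaged 6.92 ± 0.07 (SD, n = 5) in HOXC9 arrays and 5.31 ± 0.19 in GFP arrays, a difference of 1.61 ± 0.13 (SE; limma adjusted p = 1.01e-05). SOSTDC1, another BMP antagonist, was higher by 2.06 ± 0.28 (limma adjusted p = 0.000497), from a probe near the floor in GFP arrays. The activin subunits INHBB and INHBE were higher by 1.41 ± 0.19 and 1.64 ± 0.31, as INHBA was. INHBB was dim, averaging 3.63 in HOXC9 arrays and 2.22 in GFP arrays. BMP5 was higher by 2.10 ± 0.17 (limma adjusted p = 1.42e-05) and GDF10 was lower, at -2.50 ± 0.50. Both were dim, with BMP5 at 4.23 against 2.13 and GDF10 at 2.47 against 4.97. The latent TGF-beta binding protein LTBP1 differed by -1.43 ± 0.14 (limma adjusted p = 6.47e-05) and fibrillin FBN1 by -1.25 ± 0.16, with -0.79 on its second probe, which did not pass. BAMBI, a decoy receptor without a kinase domain, averaged 12.55 ± 0.12 in HOXC9 arrays and 14.19 ± 0.16 in GFP arrays, a difference of -1.64 ± 0.21 (limma adjusted p = 0.000329).

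SMAD3 was lower in IMR-32 HOXC9 arrays, 10.67 ± 0.08 (SD, n = 5) against 11.77 ± 0.07 in GFP arrays, a difference of -1.10 ± 0.09 (SE; limma adjusted p = 1.53e-05), with -1.28 on its second probe. SMAD1, of the BMP branch, was higher by 0.57 ± 0.08, with 0.48 on its second probe, which did not pass. BMPR1B was lower, at -1.11 ± 0.08. Among TGF-beta and activin targets, 2 of 23 rose and 4 fell; SPHK1, a sphingosine kinase, differed by -2.56 ± 0.18 (limma adjusted p = 5.64e-06) and MMP2 by -2.17 ± 0.24 (limma adjusted p = 0.000114). Of 13 BMP targets 1 rose and 2 fell, the homeobox genes MSX2 at -1.18 ± 0.17 and DLX5 at -0.86 ± 0.23. DLX5 lost its call when the hour 6, 24 or 96 h was left out (limma adjusted p up to 0.105).

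**Figure D3:**
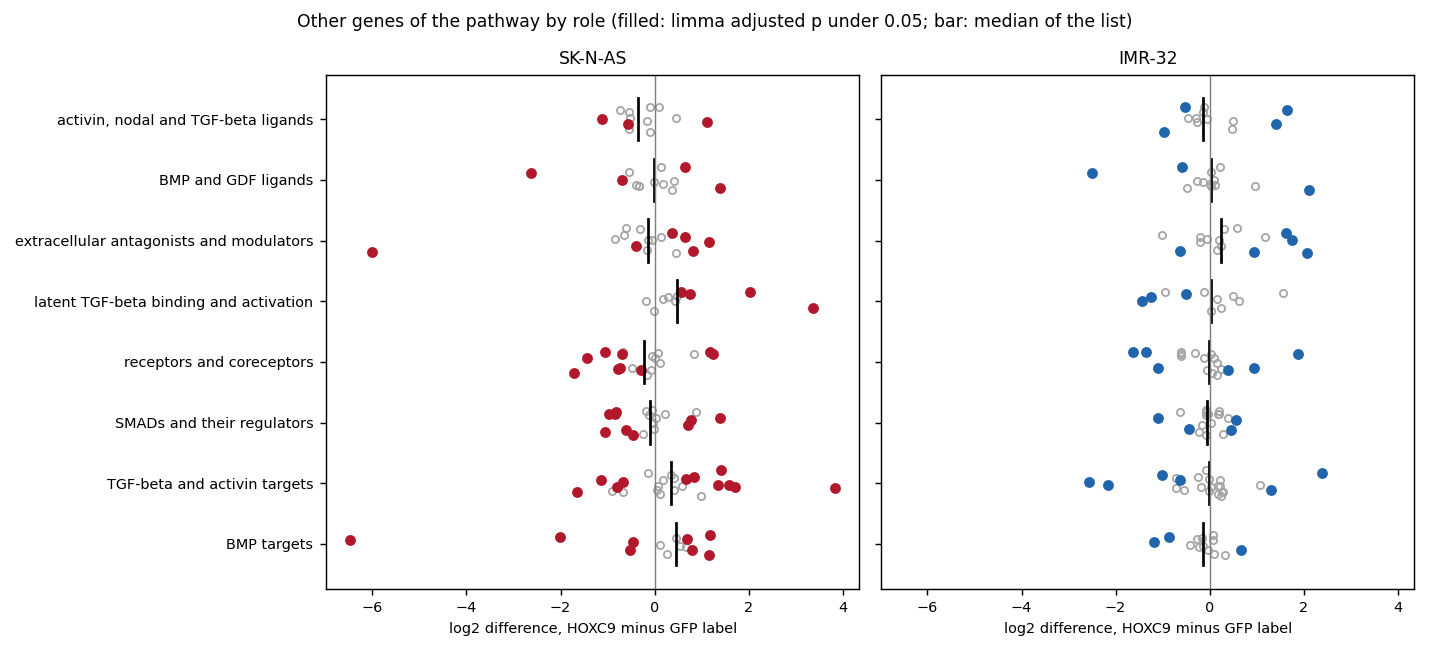
HOXC9 minus GFP difference in log2 intensity over 6 to 96 h (horizontal axis) of the 123 other measured pathway genes by list (rows), in SK-N-AS (left) and IMR-32 (right), with filled points for a limma adjusted p under 0.05 and a bar for the list's median. SK-N-AS has 54 filled points, with ID4 at -6.47 and WFIKKN2 at -6.02 farthest to the left, and IMR-32 has 34.

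Whether the HOXC9 minus GFP difference itself differed between lines was tested in the same fit, SK-N-AS minus IMR-32. The HOXC9 probe differed by -0.57 in SK-N-AS, against its label, and by 4.08 in IMR-32. Opposite signs between the lines are therefore opposite by label, not by HOXC9 level. Of the 123 other pathway genes 29 were called higher and 32 lower, 49.6% beside 40.6% of all genes (20.1% higher and 20.5% lower). Without 6, 12 and 24 h of SK-N-AS, 22 were higher and 19 lower, beside 30% of all genes. SMAD3 differed by 2.49 ± 0.13 (SE; limma adjusted p = 4.13e-07), with opposite signs in the lines. BAMBI and MMP2 also had calls of opposite sign in the lines, and differed by 2.82 ± 0.29 and 3.76 ± 0.33. For MMP2 this holds for its brightest probe, as the second gave 0.11 in SK-N-AS, not passing, and -1.78 in IMR-32. BMPR1B, in contrast, was lower in both lines. INHBB, higher in IMR-32 HOXC9 arrays, was called lower under that label in SK-N-AS (-0.57 ± 0.19), and the difference between lines was -1.98 ± 0.27 (limma adjusted p = 0.000292). GDF10, lower in both lines, did not differ detectably between them (-0.13 ± 0.70; limma adjusted p = 0.895). For the 10 genes of the set this comparison is described only. It was 10.31 for FST, 1.70 for TGFB1 and 1.43 for TGFBR2. Each of these had opposite signs in the lines at every hour, although the dimmer TGFBR2 probe gave -0.38. For the rest it was -5.63 for BMP7, 4.47 for GREM1, -4.15 for INHBA, -1.91 for BMP4, 1.33 for SMAD7, -0.46 for TGFB2 and 0.20 for BMP2.

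SK-N-AS and IMR-32 were also compared in their GFP arrays, 6 a line. The SK-N-AS GFP arrays had a bright HOXC9 probe, as given above, so this is a comparison of lines under the control transgene and not of cells without HOXC9. These arrays also enter the differences above, with which the 10 genes were picked, so the counts and p-values are no independent support for them. Of the 10 genes 4 were higher in SK-N-AS GFP arrays and 2 lower, beside 68% of all genes called (38.3% higher and 29.7% lower). TGFB1 averaged 8.70 ± 0.45 (SD, n = 6) in SK-N-AS and 3.81 ± 0.53 in IMR-32, a difference of 4.89 ± 0.31 (SE; limma adjusted p = 1.15e-05). BMP4 averaged 5.57 ± 0.41 in SK-N-AS and 1.55 ± 0.15 in IMR-32, a difference of 4.02 ± 0.15 (limma adjusted p = 1.02e-06). INHBA differed by 3.87 ± 0.26 (limma adjusted p = 1.55e-05) and TGFBR2 by 2.66 ± 0.16 (limma adjusted p = 8.75e-06), both higher in SK-N-AS at 6 of 6 hours. These 4 genes and, in the other direction, BMP2 and GREM1 had lines that did not overlap, 6 of 10 beside 54.8% of all genes (30% higher and 24.7% lower). BMP2 and GREM1 were near the floor in SK-N-AS GFP arrays.

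BMP2 and TGFB2 ran the other way. BMP2 averaged 0.74 ± 0.25 (SD, n = 6) in SK-N-AS GFP arrays, at the floor, and 2.93 ± 0.74 in IMR-32 GFP arrays, a difference of -2.18 ± 0.26 (SE; limma adjusted p = 0.000278). TGFB2 differed by -0.85 ± 0.21 (limma adjusted p = 0.0101), and with the mean of its 2 probes by -0.20, which did not pass (limma adjusted p = 0.324). FST differed by -1.02 ± 0.42 (limma adjusted p = 0.0682) and GREM1 by -0.96 ± 0.41 (limma adjusted p = 0.0744), and neither passed. Without the 0 h arrays of both lines, of which the IMR-32 one had GREM1 at 3.90, its difference was -0.51 and passed (limma adjusted p = 0.0275). The arrays left are near the floor, with GREM1 at most 0.81 in SK-N-AS and 1.73 in IMR-32. Over all 6 hours GREM1 did not pass with 16 or 50 units added either (limma adjusted p = 0.190 and 0.256). FST passed without the 96 h arrays, at -1.38 (limma adjusted p = 0.0143). BMP7, at 0.04 ± 0.26 (limma adjusted p = 0.894), and SMAD7, at -0.21 ± 0.27 (limma adjusted p = 0.510), did not pass; both were bright in the GFP arrays of both lines.

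Of the other 123 pathway genes, 56 were higher and 30 lower in SK-N-AS GFP arrays, 69.9%, close to the share of all genes. TGF-beta and activin targets had 17 of 23 higher and 2 lower, with a median of 2.09, and BMP targets had 9 of 13 higher and 3 lower, with a median of 1.75, beside a median of 0.13 over all genes. COL1A1, a fibrillar collagen that is also one of the fibroblast markers above, averaged 13.82 ± 0.42 (SD, n = 6) in SK-N-AS and 4.67 ± 0.29 in IMR-32, a difference of 9.15 ± 0.21 (SE; limma adjusted p = 8.59e-08). COL4A1, a basement membrane collagen, was higher by 2.95 ± 0.10, and the homeobox gene MSX1 by 4.16 ± 0.15. Its relative MSX2 differed by -3.39 ± 0.10, with -6.58 on its second probe. The part of the fibroblast markers in these counts was not tested.

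Extracellular modulators had 6 of 15 genes higher and 4 lower. Decorin (DCN), a matrix proteoglycan that binds TGF-beta, averaged 14.19 ± 0.42 (SD, n = 6) in SK-N-AS and 4.40 ± 0.46 in IMR-32, a difference of 9.79 ± 0.31 (SE; limma adjusted p = 3.78e-07). The BMP modulator TWSG1 was higher by 1.04 ± 0.07, with 1.21 and, not passing, 0.29 on its other probes. BMP5 averaged 11.14 ± 0.17 in SK-N-AS and 2.27 ± 0.63 in IMR-32, a difference of 8.87 ± 0.26 (limma adjusted p = 2.76e-07), and GDF6 was higher by 1.47 ± 0.20, with 5.86 on its second probe. The lists of ligands were otherwise mixed: INHBE was higher by 2.24 ± 0.17 and LEFTY1 was lower, at -2.50 ± 0.14. Thrombospondin THBS1, an activator of latent TGF-beta, was higher by 3.13 ± 0.14, with 6.78 on its second probe. FBN1 was lower, at -3.05 ± 0.09, with -1.36 on its second probe. Receptors split evenly, 7 of 18 higher and 7 lower. The BMP coreceptor RGMA was at -5.96 ± 0.23, with only -1.54 on its second probe. The activin receptor ACVR2B was at -1.54 ± 0.07, with -2.29 and -1.70 on its other probes. SMADs and their regulators had 7 of 18 higher and 4 lower, among them TGIF1, a SMAD corepressor, by 2.17 ± 0.09 and SMAD1 by 1.45 ± 0.09.

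**Figure D4:**
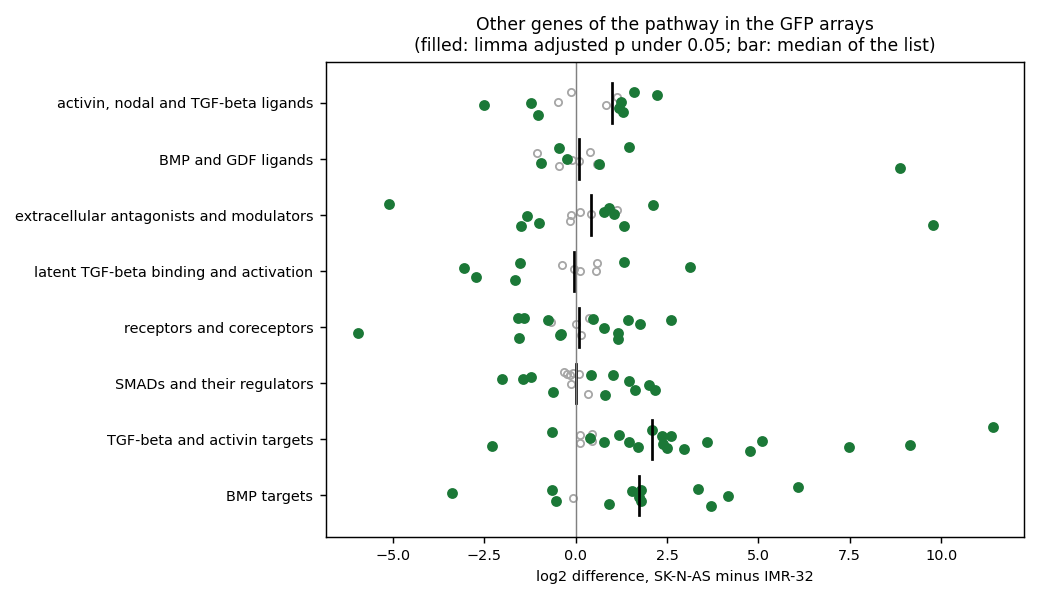
SK-N-AS minus IMR-32 difference in log2 intensity in the GFP arrays (horizontal axis) of the 123 other measured pathway genes by list (rows), with filled points for a limma adjusted p under 0.05 and a bar for the list's median. The medians of TGF-beta and activin targets, at 2.09, and of BMP targets, at 1.75, lie to the right of the 0.13 over all genes.

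Change of the HOXC9 minus GFP difference over the hours was tested with all 24 arrays against log2(1 + h/6). None of the 10 genes passed in either line (0 of 10, with 0 at an unadjusted p under 0.05), beside 0% of all genes. The smallest limma adjusted p in the set was 0.717, for INHBA in SK-N-AS, and in IMR-32 it was 1.00. Over all genes 1205 had an unadjusted p under 0.05 in SK-N-AS, and 413 in IMR-32. In simulated data this fit recovered 34.6% of 4-fold trends for SK-N-AS and 32.1% for IMR-32, so a trend of that size would often be missed. Without the 0 h arrays, which leaves 6, 12 and 24 h against 48 and 96 h, the same split by which the SK-N-AS arrays labelled HOXC9 stand apart, the test called 991 genes in SK-N-AS (5.76%). Without the SK-N-AS hours 6, 12 and 24 h it called 50 genes (0.291%) and 0 pathway genes. Of the 991 genes, 6 were other pathway genes, named after their values were seen: ACVR2B, HEY1, TGIF2, TSC22D1 and TWSG1 upward and KLF10 downward.

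Genes whose pattern was most like each member's were found by Pearson r over the 24 arrays among 12037 genes. These values are descriptions, since the arrays fall into 4 groups of 2 lines that any such pair shares. FST was most like STK10 (r = 0.981), CYP1B1 (0.978) and SAMSN1 (0.973). INHBA was most like PHLDA1 (0.961), PIK3C3 (0.952) and HOXC8 (0.950), a neighbour of HOXC9 in the HOXC cluster. BMP7 was most like ADCY1 (0.987), OCA2 (0.986) and PRICKLE1 (0.980), and BMP4 like TSACC (0.980), CPA1 (0.980) and EMP2 (0.977). GREM1 followed GPRC5B (0.921), OTULINL (0.917) and EHD1 (0.913), and BMP2 followed TH (0.924), C1QTNF4 (0.922) and PLAAT1 (0.922). TGFB1 was most like ZBTB17 (0.995), RHBDF1 (0.994) and TNFAIP2 (0.994), TGFBR2 like EHD2 (0.996), TIMP1 (0.994) and TMBIM1 (0.994), and TGFB2 like WDR45B (0.938), COPRS (0.936) and DCUN1D5 (0.931). SMAD7 was most like SMAD6 (0.920), the other inhibitory SMAD, then FOSL2 (0.886) and ROM1 (0.885). Within the set, TGFB1 and TGFBR2 ran together at 0.991 and FST and GREM1 at 0.899, and FST and BMP7 ran opposite at -0.931.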

How the data were processed

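Per the labels, total RNA was taken up in TRIzol and read, as Cy3-labelled target, on one-colour arrays; limma is named in the submitters' processing notes. The deposited values are linear intensities, 1.32 to 309395 units, whose distribution is the same on every array (at most 0.0723% apart at any rank); the step that made it so is not given in the sources used here. Log2 was taken with no offset and no detection flags. Of 44708 features, 27942 had 1 gene symbol in the platform annotation; of 17370 symbols 2937 were updated and 9 not found, and the brightest probe stood for each of 17199 genes. The table holds no counts, so depth is unknown and the number of arrays limits precision.

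HOXC9 and GFP arrays were compared by limma (lmFit, eBayes; two-sided) in 1 fit of 20 arrays, 6 to 96 h, with each line-by-hour pair as a block and the transgene fitted separately for each line; the 0 h arrays were described. For the line comparison, 12 GFP arrays were fitted with the hour as block, and trends used 24 arrays. Calls took a Benjamini-Hochberg adjusted p under 0.05. The members, the lists and the named-gene rule were chosen with earlier results of these data known. The rule named all members and, per list and comparison, up to 4 called genes with the smallest p (3 between lines of GFP arrays), of which the first 2 are described; and the 3 most alike genes per member whose highest array passed the 40th percentile of gene means (log2 7.28). Alternatives were offsets of 16 and 50 units, other scalings, probe choices, eBayes settings and hours, leaving out each hour, dim genes or the block. The fits were tested on simulated data. Software was R 4.3.3, limma 3.58.1, Python 3.11.15, pandas 2.3.3, numpy 2.4.6 and matplotlib 3.10.9.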

Additional observations from a re-analysis of the deposited data

Results flagged for a closer look

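Chance flags about 1 in 20 groups of 6 arrays; of 56 groups of probe and array group, 6 had an end array far from the rest. These were the 0 h array of INHBA in IMR-32 HOXC9 (7.56, highest), of BMP2 in SK-N-AS GFP (1.26, highest) and of GREM1 in IMR-32 GFP (3.90, highest). The others were dimmer probes: 1 of BMP7 at 12 h in IMR-32 HOXC9 (6.30, lowest), 1 of BMP7 at 48 h in SK-N-AS GFP (7.09, lowest) and that of TGFBR2 at 96 h in SK-N-AS arrays labelled HOXC9 (5.37, highest).

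Differences between lines of the HOXC9 minus GFP difference are given as SK-N-AS minus IMR-32, in log2. For FST (10.31), TGFB1 (1.70) and TGFBR2 (1.43) every hour moved one way in SK-N-AS and the opposite way in IMR-32, and the difference was not tested. The dimmer TGFBR2 probe gave -0.38. The HOXC9 probe was itself lower under the HOXC9 label in SK-N-AS (-0.57) and higher in IMR-32 (4.08), so these are differences by label. Of 28 named pathway genes 26 passed the test of the difference (limma adjusted p under 0.05), beside 40.6% of all genes. These 28 were picked for their small p in at least 1 line of the same fit. Their count is therefore no independent support. More positive in SK-N-AS were ANGPTL4 (4.54), MMP2 (3.76), ITGB8 (3.13), BAMBI (2.82), SMAD3 (2.49), SPHK1 (1.89), FBN1 (1.53), LEFTY1 (1.40), WFIKKN1 (1.35), LTBP1 (1.25), LTBP3 (1.24), RUNX2 (1.12), MSX2 (0.72) and BMPR1B (0.37). More negative were WFIKKN2 (-6.96), ID4 (-6.53), INHBE (-2.38), INHBB (-1.98), BMP5 (-1.73), SOSTDC1 (-1.60), ENG (-1.32), NBL1 (-1.23), ZFYVE9 (-1.17), DLX5 (-1.16), GDF1 (-1.06) and GDF5 (-0.79). The second MMP2 probe had a HOXC9 minus GFP difference of 0.11 in SK-N-AS and -1.78 in IMR-32.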

How the results depend on the processing

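Of the alternative values of single-gene differences, 1243 stayed the same, 24 moved, 31 lost and 6 gained a call, and 9 reversed. A tested difference stayed the same if it kept its direction and its side of the threshold. An untested one stayed the same if it kept its direction and lay within its SD over hours of the main value. Several settings, such as other eBayes settings, leave the size of a difference unchanged by design. The tally is therefore no measure of how robust the differences are. The counts of called pathway genes moved beyond 1.5 times as follows. In SK-N-AS (54) there were 6 with 48 and 96 h alone and 34 without 6, 12 and 24 h of SK-N-AS. In IMR-32 (34) there were 21 among genes above log2 7.28, 3 with 48 and 96 h alone and 55 with the arrays of IMR-32 alone. Between lines (61) there were 38 among brighter genes and 6 with 48 and 96 h alone, and in GFP arrays (86) there were 52 among brighter genes; fewer genes or arrays enter these settings. Leaving out 1 hour gave 41 to 61 in SK-N-AS, 25 to 34 in IMR-32, 44 to 65 between lines, 81 to 86 in GFP arrays and 0 to 6 for the SK-N-AS trend. Over all genes, SK-N-AS had 7258 calls, 899 with 48 and 96 h alone, 3783 without 6, 12 and 24 h, 4441 with the line alone, 11346 with every probe and 4860 to 7758 leaving out 1 hour. IMR-32 had 4130, then 338 with 48 and 96 h alone, 2387 among brighter genes, 6575 with the line alone, 6480 with every probe and 2530 to 4227 leaving out 1 hour. Between lines 6985 became 772 with 48 and 96 h alone, 4599 among brighter genes and 10876 with every probe, and in GFP arrays 11696 became 7840 among brighter genes and 18740 with every probe. The longer motif GTCTAGAC was in 0 windows, against 13 for GTCT. Among reversals, leaving out 1 hour gave -0.068 to 0.26 for BMP7 between GFP lines and -0.14 to 0.041 for TGFB2 in IMR-32, and the second probe gave 0.059 for TGFB2 in SK-N-AS and 0.59 for TGFBR2 in IMR-32. The cause was not tested.

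Arrays of the same hour and line correlated after group means were removed at -0.093 to 0.157 in SK-N-AS and 0.032 to 0.141 in IMR-32. Arrays of different hours were not compared in this way, so whether the hours pair the arrays was not tested. Without the block the pathway counts were 56 in SK-N-AS, 36 in IMR-32, 59 between lines, 90 in GFP arrays and 0 for both trends, and FST passed between GFP lines (limma adjusted p = 0.0313). Quantile normalization also called FST (0.0411) and GREM1 (0.0218) there, and neither passed with 16 or 50 units added. With no detection flags, differences against dim levels depend on the floor. Among the members these are FST, INHBA and TGFB1 in IMR-32, GREM1, BMP2 and BMP4. The same holds for dim genes of the pathway lists, such as INHBB, BMP5 and GDF10 in IMR-32.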

Other observations

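Among SK-N-AS arrays labelled HOXC9, TGFB2, INHBA, BMP4 and BMP7 were on average dimmer at 6, 12 and 24 h than at 0, 48 and 96 h. The log2 differences of these means were -0.95, -0.85, -0.63 and -0.61, and GREM1 was on average brighter by 1.03. In SK-N-AS GFP arrays the same differences were -0.46 for TGFB2, -0.69 for INHBA, 0.24 for BMP4, 0.68 for BMP7 and 0.00 for GREM1. SMAD6, an inhibitory SMAD, differed between lines in its HOXC9 minus GFP difference by 1.51 ± 0.50 (SE; limma adjusted p = 0.0344), although it passed in neither line alone (0.88 ± 0.35 in SK-N-AS and -0.63 ± 0.35 in IMR-32); it was chosen after its values were seen.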
